A study of Mus musculus with 3 samples.

Results

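The antigen presentation genes described here comprise 46 of the 19938 genes that the platform annotation names. They were taken by symbol, as every gene beginning with H2- (29 genes) plus 17 further genes of peptide processing, loading and regulation. Of these, 33 belong to class I (20 heavy chain genes and 13 genes of processing, loading and control) and 11 to class II (8 chain genes and 3 genes of loading and control). The other two are Cd1d1, which encodes a lipid-presenting relative of class I, and H2-Ke6, which carries an H2 symbol by position but encodes a steroid dehydrogenase and was kept out of both classes. RNA came from healing wounds on the backs of C57Bl/6 mice aged 6 weeks, each with an excision of 1.5 cm2 that took epidermis and dermis. Wound dermis with any epidermis over it was taken at day 10, 12 or 14, away from intact skin and follicles at the edge, and tissue of 3 mice was pooled at each time. Each pool was measured on 1 array, with no unwounded control among the 3 arrays used here. No difference below therefore has a replicate error or a p-value, and the number of arrays limits the precision.

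Class I molecules pair an H2-encoded heavy chain with beta 2 microglobulin and display peptides from the cell's own proteins on nearly every cell type. These peptides are cut by the proteasome, carried into the endoplasmic reticulum by the Tap transporter and loaded with the help of tapasin and calreticulin, and Nlrc5 is the transactivator of the pathway. Class II molecules are pairs of alpha and beta chains that display peptides taken up from outside. In skin they are found chiefly on dendritic cells, Langerhans cells, macrophages and B cells, and Ciita is their transactivator. The invariant chain Cd74 occupies the groove until cathepsin S trims it and the H2-DM protein exchanges the remnant for peptide. The genes of both systems share a promoter element made of an X box and a Y box.

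Values are log2 expression as deposited, and a difference is a later day's value minus an earlier one's. The arrays resembled each other closely, with medians over genes of 8.23, 8.25 and 8.22 on days 10, 12 and 14, and Pearson correlations across 35556 probe sets between 0.991 and 0.996. Many genes held exactly equal values on all days (25.7% of all genes and 8 of the 46 members), and an exact tie is not a precise measurement of no difference. As a yardstick of technical spread, probe sets of the same gene were compared within 999 genes. Each probe set's deviation from its gene's mean difference was enlarged to allow for the few probe sets in that mean. The enlarged deviation lay within 0.25 in 95% of cases for day 12 against day 10. It lay within 0.20 for day 14 against day 12 and within 0.30 for day 14 against day 10. This spread does not cover animals. It also leaves out any error that all probe sets of a gene share on an array. A difference beyond it is therefore not shown to exceed the error between arrays. The pools did not match in Y-linked transcripts: Eif2s3y was 5.49, 9.59 and 8.38 on days 10, 12 and 14, Uty was 5.49, 9.0 and 7.84, and Kdm5d was 6.17, 8.42 and 7.50. Xist was 12.30, 12.05 and 12.28 on the same arrays. The labels used here give no sex, and the part of this mismatch in the results below was not tested. Markers of both skin layers were measured at high levels, the 7 keratinocyte markers at list means of 12.6, 12.8 and 12.8 (lowest single value 10.3) and the 6 fibroblast markers at 12.8, 12.7 and 12.7 (lowest 11.5).

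Class II genes were higher on day 12 than on day 10. Of the 11 class II genes, 9 were higher on day 12, 2 were exactly equal and 0 were lower, beside 25.5% of all genes that were higher. The median class II difference was 0.32 and that of all genes was 0.00. All 9 differences exceeded the technical yardstick, against 7.11% of all genes that were higher by more than this amount. In size they were moderate, and only H2-Ab1 reached 1.5-fold (1 of 11, beside 2.33% of all genes). In whole tissue, fewer cells of a type and less RNA per cell cannot be told apart, so a higher value may be either more cells or more RNA in each.

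**Figure D1:**
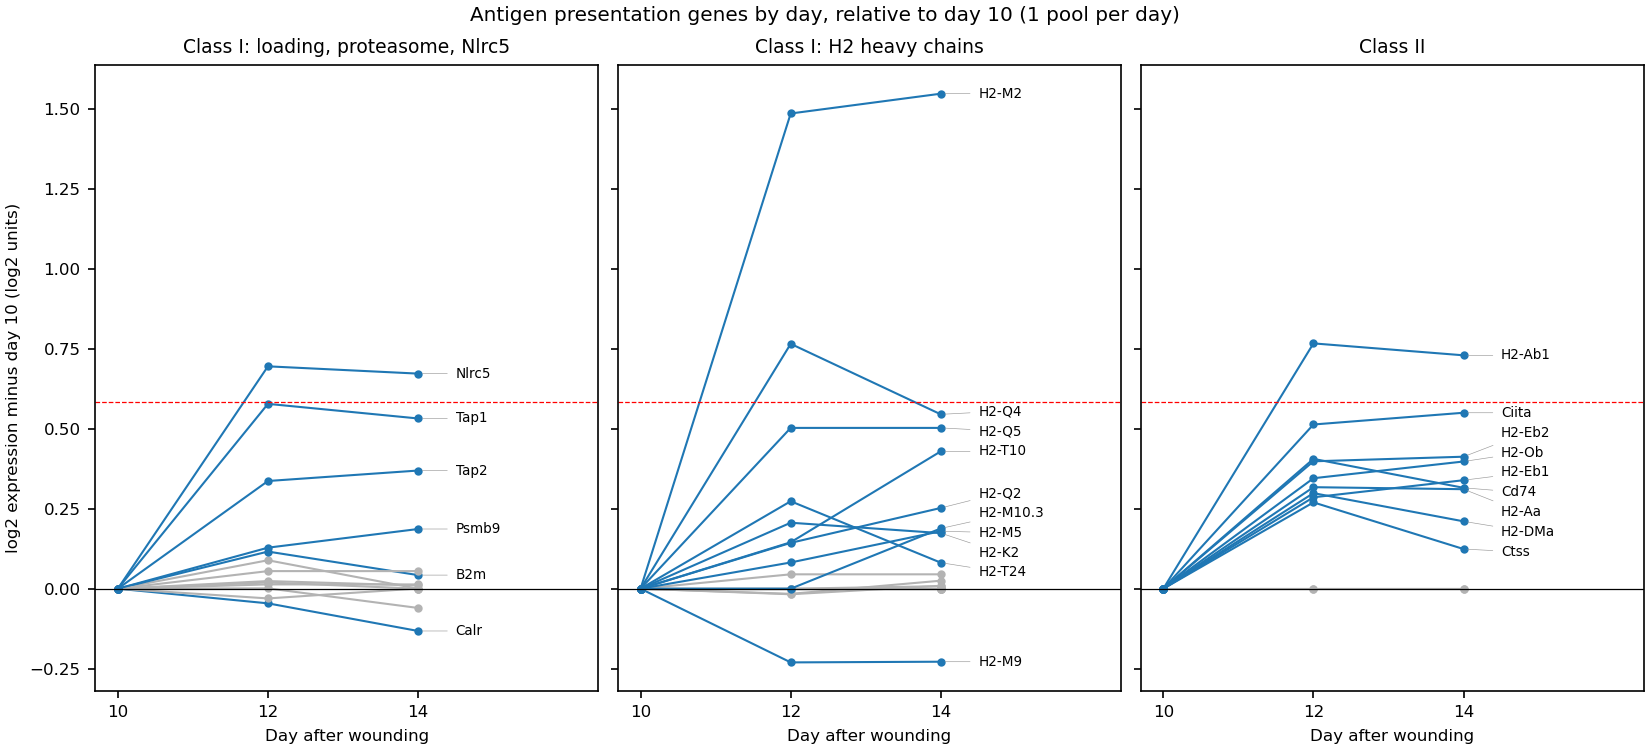
Log2 expression minus its day 10 value (vertical axis, log2 units) against day after wounding for the class I processing genes, the class I heavy chains and the class II genes, 1 line per gene and 1 pool per day. The dashed red line marks 1.5-fold, grey lines are genes within 0.1 of day 10 on both later days, and H2-M2, H2-Ab1 and Nlrc5 stand above the dashed line on both.

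The A chains are the class II molecule that C57Bl/6 mice display. H2-Ab1, encoding the beta chain, had the values 11.74, 12.50 and 12.47 on days 10, 12 and 14. It was thus 1.70-fold higher on day 12 than on day 10, and its value on day 14 was close to that of day 12. H2-Aa, encoding the partner alpha chain, was 12.24, 12.55 and 12.55, or 1.25-fold higher on day 12. Both chain genes were lowest on day 10, and the difference was larger for the beta chain (0.77) than for the alpha chain (0.32).

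H2-Eb1, the beta chain gene of the E molecule, was 11.80, 12.08 and 12.14 on days 10, 12 and 14, a 1.22-fold higher value on day 12. H2-Ea, the alpha chain gene of E, is not expressed in this strain because a deletion removes its promoter region. It stood at 5.48 on every day, below the lower quartile of probe sets on day 10 (5.91). H2-Eb2, a relative of H2-Eb1 with low values, was 6.71, 7.10 and 7.12. H2-Ea, H2-Eb2, H2-Oa and H2-Ob fell below the level set for naming genes and were singled out after their values were seen.

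The genes that load class II molecules were also higher on day 12. Cd74, the invariant chain gene, was 12.12, 12.52 and 12.43 on days 10, 12 and 14, and was 1.32-fold higher on day 12. H2-DMa, the alpha chain gene of the peptide editor, was 10.29, 10.59 and 10.50, or 1.23-fold higher on day 12. The beta chain genes of the same editor have only a joint probe set, which is given with the shared probe sets below. Ctss, the cathepsin that trims the invariant chain, was 11.88, 12.15 and 12.01, or 1.21-fold higher on day 12. H2-DO, which restrains the editor, is encoded by H2-Oa and H2-Ob. H2-Ob was 7.30, 7.64 and 7.69, whereas H2-Oa held 7.12 on every day. The pair encoding DO therefore split, with higher values for the beta chain gene and a tie for the alpha chain gene, both at low levels.

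Ciita, the transactivator without which class II genes are silent, had the values 8.0, 8.51 and 8.55 on days 10, 12 and 14. This was 1.43-fold higher on day 12 and 1.46-fold higher on day 14 than on day 10. Of the 7 genes for the factors that bind the shared promoter element, 0 were higher on day 12 and 5 were lower, with a median of −0.02. All 7 had a mean at or above the median of gene means, where 32.8% of all genes were higher and 45.3% lower. Nfyb and Nfyc, subunits of the Y box factor, differed by −0.26 and −0.16, and Rfx5, a subunit of the X box factor, by −0.00415. None of these 7 genes was higher on day 14 than on day 10 either, beside 29.3% of all genes at that level.

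The shared element is shown for 5 class II chain genes, because class II genes share it by textbook account. They were picked for holding the Y letters. The RefSeq table also holds H2-DMa, with these letters in 1 of its 2 promoters, and Ctss, without them. Promoters of 300 bases (250 before and 50 after the transcript start, build GRCm38.p6) were found for 33 of the 46 members. H2-Ab1, Cd74, Ciita, Nlrc5 and Tap2 are among those without one, so no count of promoter letters covers them. In each stretch of 80 bases below, capitals mark the Y box letters ATTGG and, where the letters ACNGATG of an X box begin 25 to 35 bases upstream on the same strand, those too. This X pattern was set after the promoters had been read.
H2-Aa, chr17:34287852-34287931, minus strand: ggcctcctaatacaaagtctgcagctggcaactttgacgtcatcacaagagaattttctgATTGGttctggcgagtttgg
H2-Eb1, chr17:34305748-34305827, plus strand: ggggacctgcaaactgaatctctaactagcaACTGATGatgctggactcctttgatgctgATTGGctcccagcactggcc
H2-Eb2, chr17:34325515-34325594, plus strand: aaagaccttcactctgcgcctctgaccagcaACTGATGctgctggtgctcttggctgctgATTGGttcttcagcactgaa
H2-Ob, chr17:34238788-34238867, plus strand: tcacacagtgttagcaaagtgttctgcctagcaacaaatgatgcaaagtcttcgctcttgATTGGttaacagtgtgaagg
H2-Oa, chr17:34092276-34092355, plus strand: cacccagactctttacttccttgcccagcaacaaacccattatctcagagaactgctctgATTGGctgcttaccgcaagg
The Y letters stood 43 to 100 bases upstream of the transcript start in these genes, at −48 in H2-Aa, −59 in H2-Eb1, −100 in H2-Eb2, −57 in H2-Ob and −43 in H2-Oa. On either strand, ATTGG occurred in a promoter of 6 of the 6 class II chain genes held in the table (in 1 of the 2 promoters of H2-DMa) and in 37.4% of all 32851 promoters. The X letters followed by the Y letters occurred in H2-Eb1 and H2-Eb2, 29 bases apart in both, and in 32 of all promoters (0.0974%). Of those 32 promoters, 9 belonged to genes with an H2 symbol. Since the X pattern was set after the promoters had been read, these counts are no separate support for a shared element. A match is a description of letters and no measurement of binding.

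Of the 33 class I genes, 20 were higher on day 12 than on day 10, 5 were lower and 8 were equal, beside 25.5% of all genes higher and 34.5% lower. The median class I difference was 0.02. It depended on the level: the 17 class I genes with a mean at or above the median of gene means had 14 higher, 2 lower and 1 equal, with a median of 0.089. The 16 below it had 6 higher (37.5%), 3 lower and 7 equal, beside 25.5% of all genes at any level that were higher. Their median of 0.00 falls among the tied genes, so it does not mean that the low-level genes were alike. All 7 class II genes at or above that level were higher, as were 32.8% of all genes there. The level is a mean over the same 3 arrays, so a gene's later values help decide its group. Ciita was below the cut of 8.25 on day 10 (8.0) and passed through its later values. H2-M9 was above the cut on day 10 (8.28) and fell below it through its later values (8.05 on both days). The 3 class I genes that reached 1.5-fold were H2-M2, H2-Q4 and Nlrc5 (beside 2.33% of all genes). The technical yardstick was exceeded by 7 of 33, beside 7.11% of all genes. Among the 20 heavy chain genes, 9 were higher, 3 lower and 8 equal, and among the 13 processing and control genes 11 were higher and 2 lower.

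H2-M2, a non-classical heavy chain gene, had the values 6.94, 8.43 and 8.49 on days 10, 12 and 14. It was 2.80-fold higher on day 12 and 2.92-fold higher on day 14 than on day 10, the largest differences among the 46 members and the only ones of at least 2-fold (0.787% of all genes reached 2-fold on day 12). Its low day 10 value came from a single probe set. The remaining 11 H2-M genes did not share this: 6 were tied between day 10 and day 12, and their differences lay between −0.23 for H2-M9 and 0.08 for H2-M5. H2-M3, which presents formylated bacterial peptides, held 8.30 on every day.

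H2-Q4, a non-classical gene of the Q region, was 8.97, 9.74 and 9.52 on days 10, 12 and 14, or 1.70-fold higher on day 12. H2-Q5, a transcribed pseudogene in the RefSeq table, was 8.80, 9.30 and 9.30, or 1.42-fold higher on both later days. H2-T24, of the T region, was 8.29, 8.56 and 8.37, highest on day 12. The other 15 heavy chain genes lay below the level for naming. Their differences ran from −0.23 to 0.21 on day 12, with 5 higher, 3 lower and 7 equal. Among these, H2-T10 (7.55, 7.69 and 7.98) was singled out after its values were seen, as the heavy chain gene with the largest step from day 12 to day 14. Heavy chain genes are close copies of one another, so a probe set given to 1 symbol may still collect signal from relatives.

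H2-K1 and H2-D1, the classical heavy chain genes of this strain, had no probe set of their own and are not among the members. Altogether 8 probe sets list several symbols of which at least 1 begins with H2-, and no gene can be named from them. The 2 that list H2-K1 and H2-D1 together with another symbol were 11.84, 12.24 and 12.20, and 12.00, 12.41 and 12.38, on days 10, 12 and 14. Both were 1.32-fold to 1.33-fold higher on day 12. One shared within the Q region was 9.05, 10.26 and 10.06, or 2.31-fold higher on day 12, and one shared within the T region was 9.47, 9.97 and 9.97, or 1.42-fold higher. The one listing both H2-DM beta chain genes was 8.76, 9.27 and 9.30, or 1.42-fold higher on day 12. The other 3 differed by 0.00, 0.00 and 0.12 on day 12.

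**Figure D2:**
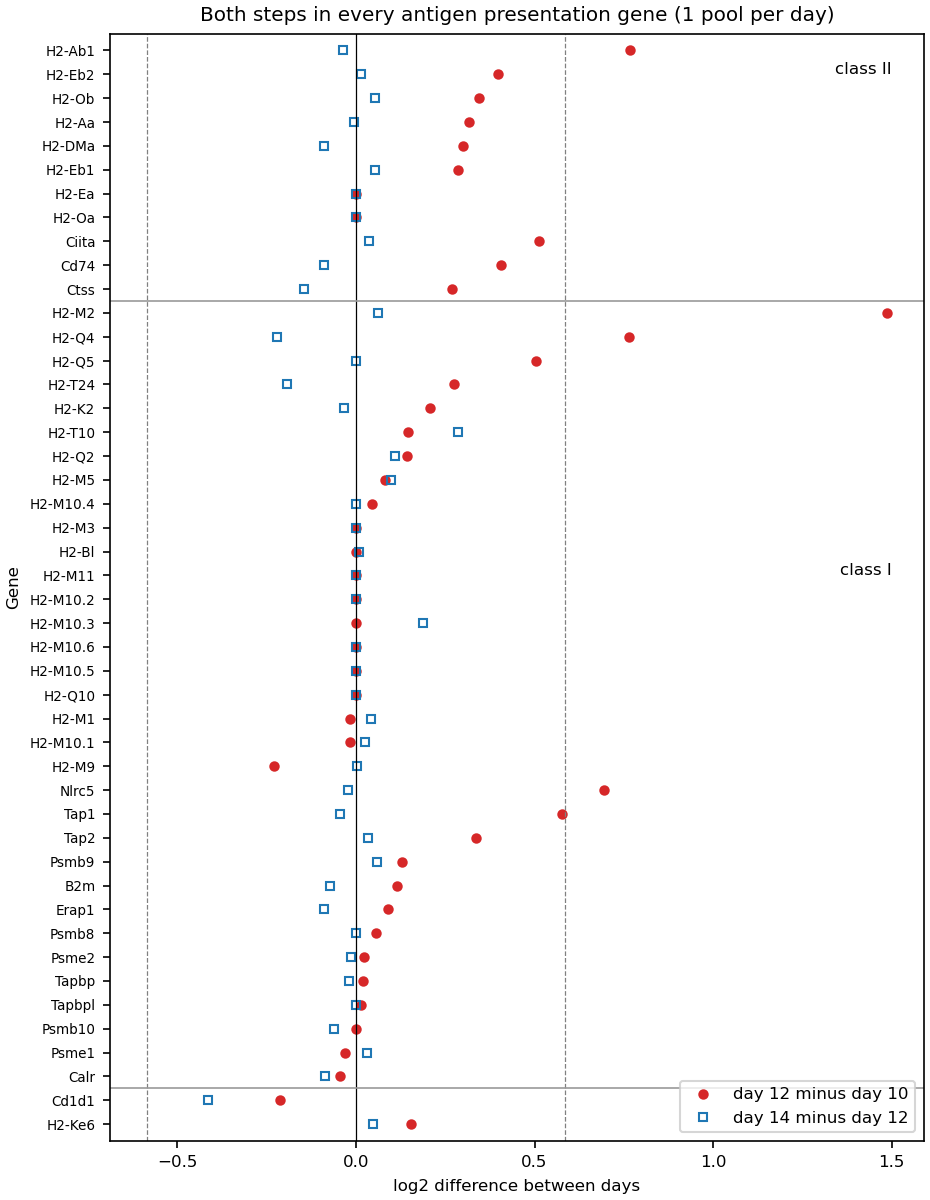
Log2 difference between days (horizontal axis) for each of the 46 genes (vertical axis), as filled circles for day 12 minus day 10 and open squares for day 14 minus day 12, with dashed lines at 1.5-fold. The circles of 9 of 11 class II genes lie to the right of 0.25, whereas the squares of all class II genes lie between −0.15 and 0.05.

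Nlrc5 was measured by 19 probe sets, the only member with more than 1. Their mean was 8.51, 9.21 and 9.18 on days 10, 12 and 14, or 1.62-fold higher on day 12 and 1.59-fold higher on day 14. All 19 probe sets were higher on day 12 than on day 10, with differences from 0.31 to 1.09 (SD 0.26 over probe sets of the same arrays). All 19 were also higher on day 14 than on day 10, from 0.39 to 0.95. Between day 12 and day 14, 6 were higher and 13 lower, within −0.35 and 0.32. The direction over the first step was thus the same in every probe set, while its size varied between them. The brightest probe set taken alone gave 0.35 on day 12, which is under 1.5-fold, and 0.27 on day 14 against day 12.

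**Figure D3:**
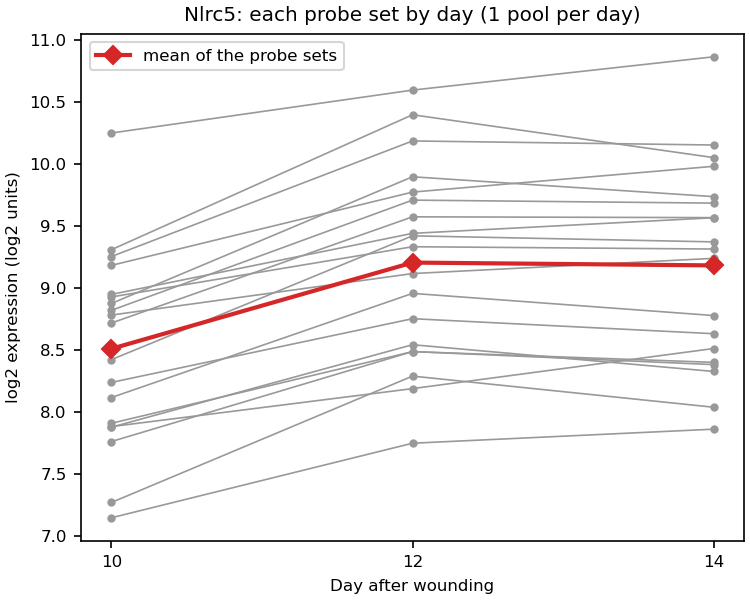
Log2 expression (vertical axis, log2 units) of each of the 19 Nlrc5 probe sets (grey) and their mean (red) against day after wounding, with 1 pool per day. Every grey line is higher on day 12 than on day 10, and the mean goes from 8.51 to 9.21 and then 9.18.

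The genes of the peptide transporter were also higher on day 12, by less than Nlrc5. Tap1 was 9.80, 10.38 and 10.33 on days 10, 12 and 14, or 1.49-fold higher on day 12, just short of 1.5-fold. After cyclic loess scaling its difference was 0.589, just past 1.5-fold, and the class I count on day 12 was 4 in place of 3. Tap2 was 8.75, 9.09 and 9.12, or 1.26-fold higher on day 12. Tap1, Tap2 and Nlrc5 were the only 3 of the 13 processing and control genes beyond the technical yardstick on day 12, and the same 3 exceeded it on day 14 against day 10.

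The rest of the class I machinery lay near its day 10 level. The immunoproteasome subunit genes Psmb8, Psmb9 and Psmb10 differed on day 12 by 0.06, 0.13 and 0.00111. Psmb9 was 8.98, 9.10 and 9.16 on days 10, 12 and 14, Psmb8 was 8.91, 8.96 and 8.96, and Psmb10 was 9.75, 9.75 and 9.69. Psme1 and Psme2, which encode the proteasome activator, were 10.56, 10.53 and 10.56, and 11.08, 11.10 and 11.09. These 5 genes had a median difference of 0.02 on day 12, and none reached the yardstick.

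B2m, the light chain gene of every class I molecule, was 13.09, 13.21 and 13.13, or 1.08-fold higher on day 12. The tapasin gene Tapbp was 11.22, 11.24 and 11.22, and its relative Tapbpl was 8.71, 8.72 and 8.72. Erap1, the trimming peptidase of the endoplasmic reticulum, was 9.20, 9.29 and 9.20. Calr, the calreticulin gene, was 12.78, 12.74 and 12.65, the only class I processing gene with its highest value on day 10. The peptide transporter and the transactivator thus stood apart from the proteasome and loading genes on these arrays, and this contrast has no replicate check.

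Promoter stretches of class I members are shown for the same element, for a gene that was higher on day 12 (H2-Q4), one with tied values (H2-M3) and the light chain gene, marked as above.
H2-Q4, chr17:35379478-35379557, plus strand: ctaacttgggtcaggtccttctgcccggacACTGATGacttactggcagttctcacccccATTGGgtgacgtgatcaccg
H2-M3, chr17:37270153-37270232, plus strand: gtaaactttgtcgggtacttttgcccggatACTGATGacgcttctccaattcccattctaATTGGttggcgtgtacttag
B2m, chr2:122147574-122147653, plus strand: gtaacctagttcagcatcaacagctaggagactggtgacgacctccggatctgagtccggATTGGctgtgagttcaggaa
The X and Y letters began 30 bases apart in both H2-Q4 and H2-M3. These were the only 2 of the 15 heavy chain genes with the spaced pattern. It occurred in 0 of the 10 processing genes with a promoter in the table. ATTGG occurred in 13 of the 15 heavy chain genes and 5 of the 10 processing genes with a promoter in the table. The letters of an interferon response element are GAAA repeated after a gap of any 2 bases. They occurred in B2m, Erap1 and Psme1 (3 of 27 class I promoters) and in Ctss (1 of 8 class II promoters). Among all promoters the share was 3.44%. The letters TTCNNNGAA of a gamma-activated site occurred in Psmb8, H2-M3 and H2-M11. That is 3 of 27 class I promoters (11.1%) and 0 of 8 class II promoters, near the 8.30% of all promoters. The promoter windows of Tap1 and Psmb9 overlap head to head on chromosome 17 (34187306 to 34187605 on the plus strand and 34187281 to 34187580 on the minus strand), and these neighbours were 1.49-fold and 1.09-fold higher on day 12.

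On day 14, both classes lay close to their day 12 values. None of the 46 members was 1.5-fold higher or 1.5-fold lower on day 14, beside 0.271% and 0.712% of all genes. Of the class II genes, 4 were higher, 5 lower and 2 equal, with a median of 0.00 and a range from −0.15 for Ctss to 0.05 for H2-Eb1. Of the class I genes, 12 were higher, 11 lower and 10 equal, with a median of 0.00 and a range from −0.22 for H2-Q4 to 0.28 for H2-T10. Among all genes, 32.7% were higher and 30.8% lower. The count of any difference, however small, depends on the scaling, and the values under other scalings are given in the closing section.

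The comparison of day 14 with day 10 spans both steps. The same 9 class II genes were higher on day 14 as on day 12, with a median of 0.32, and 7 of 11 exceeded the technical yardstick (7.17% of all genes). H2-Ab1 was 1.66-fold higher and again the only class II gene at 1.5-fold, beside 3.11% of all genes. The values for H2-Eb1, H2-Aa, Cd74 and H2-DMa were 1.27-fold, 1.24-fold, 1.24-fold and 1.16-fold higher, and Ctss was 1.09-fold higher. Of the class I genes, 22 were higher, 3 lower and 8 equal, with a median of 0.03, beside 34.9% of all genes that were higher. H2-M2 and Nlrc5 reached 1.5-fold, and H2-Q4, Tap1 and Tap2 were 1.46-fold, 1.45-fold and 1.29-fold higher. This comparison shares its arrays with the other two and adds no separate evidence.

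Cd1d1, whose product presents lipids to natural killer T cells, was lower on the later days. Its values were 8.49, 8.27 and 7.86 on days 10, 12 and 14, and its day 14 value was 1.54-fold lower than on day 10. It was the only member at least 1.5-fold lower in any pair of days (2.98% of all genes were so on day 14 against day 10). H2-Ke6 was 9.09, 9.25 and 9.30.

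Other genes of the pathways were taken from lists fixed by symbol, and stand beside 25.5% of all genes higher and 34.5% lower on day 12. Most genes of both lists lay at or above the median level, where these shares were 32.8% and 45.3%. Of 12 further class I pathway genes, 4 were higher and 5 lower on day 12, with a median of 0.00. Psmb6, the constitutive counterpart of Psmb9, differed by −0.39, the cytosolic peptidase gene Thop1 by 0.39 and the vesicle transport gene Sec22b by −0.28. Of 11 further class II pathway genes, 1 was higher and 4 lower on day 12, with a median of 0.00, and the lysosomal protease gene Lgmn was 12.58, 12.41 and 12.21. In the same list Ctsf and Marchf8 differed by 0.22 and −0.14 on day 14 against day 10. The 1 higher gene of this list on day 12 was the cathepsin gene Ctsl, by 0.04, named after its value was seen.

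Among all genes, 25.5% were higher on day 12 than on day 10, and 30.8% were lower on day 14 than on day 12. For genes with a mean at or above the median level, these shares were 32.8% and 49.8%. The counts of the lists that follow stand beside these shares.

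Costimulatory genes, whose products accompany antigen presentation, had 5 of 8 members higher on day 12 and 7 of 8 lower on day 14 than on day 12. Cd274, encoding the checkpoint ligand PD-L1, was 9.33, 9.94 and 9.33, with the same value on day 14 as on day 10. Cd80 and Tnfsf4 differed by 0.16 and −0.10 on day 12. In the interferon gamma list, 5 of 9 genes were higher on day 12 and 4 lower, with a median of 0.02. Irf8, a factor of myeloid and dendritic cells, was 9.72, 10.11 and 10.04, and Irf2 and Socs1 differed by 0.17 and −0.14. Ifng itself was 6.38, 6.44 and 6.44, and Irf1 was 8.51, 8.51 and 8.39, both chosen after their values were seen.

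Among the cells that carry class II molecules, dendritic cell and macrophage markers were mostly higher on day 12, and B cell markers mostly tied. Of 11 dendritic and Langerhans cell markers, 9 were higher on day 12 than on day 10 and 0 were lower, with a median of 0.33, beside a class II median of 0.32. In this list 7 of the 11 genes lay below the median level, and Flt3, Zbtb46, Ccr7 and Batf3, named after their values were seen, differed by 0.01, 0.00, 0.04 and 0.00. The mean log2 level of the list was 7.66, 7.99 and 8.12 on days 10, 12 and 14. Itgax, encoding CD11c, was 9.44, 10.51 and 10.81, Itgae was 7.66, 8.12 and 8.34, and Cd207, which encodes langerin of Langerhans cells, was 6.11, 6.56 and 6.78. On day 14, 9 of the 11 were higher again than on day 12 (median 0.12), whereas the class II median over that step was 0.00.

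Most macrophage markers were higher on day 12 than on day 10 and lower on day 14 than on day 12. Of 10 markers, 9 were higher on day 12 and 0 lower (median 0.27), and 9 were lower on day 14 than on day 12 (median −0.19), with list means of 10.5, 10.8 and 10.4. Cd14 was 9.66, 10.32 and 8.95, Itgam was 10.59, 11.12 and 10.46, and Fcgr1 was 9.77, 10.01 and 9.44. Against day 10, day 14 had 3 markers higher, 5 lower and 2 equal (median −0.0085), beside 34.9% of all genes higher and 35.6% lower. The 3 higher were Adgre1, Csf1r and Mrc1, by 0.12, 0.16 and 0.21, named after their values were seen. The general leukocyte list had 5 of 7 genes higher on day 12 (median 0.10) and 6 of 7 lower on day 14 than on day 12 (median −0.10), with means of 10.7, 10.9 and 10.8. Ptprc, encoding CD45, was 10.33, 10.87 and 10.59, and Arhgap15 and Cyba differed by 0.38 and −0.21 on day 12. The part of any of these cells in the class I or class II values was not tested.

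Of 6 B cell markers, 1 was higher and 1 lower on day 12 (median 0.00), with list means of 6.62, 6.64 and 6.69. Ms4a1 and Pax5, named after their values were seen, held 5.25 and 6.36 on all days. Ms4a1 lay below the lower quartile of probe sets on day 10 (5.91). All 6 markers lay below the median level and signal over background is unknown, so ties here are weak evidence of no difference. Against day 10, day 14 had 4 of the 6 higher and 0 lower (median 0.08). Cd22, Blk and Cd79b differed by 0.18, 0.11 and 0.11 on day 14 against day 10. Of 9 T cell markers, 5 were higher on day 12 and 0 lower (median 0.07), with means of 7.36, 7.46 and 7.47, and Cd3g, Cd2 and Cd5 differed by 0.24, 0.27 and 0.27. Of 5 natural killer cell markers, 2 were higher (median 0.00), with means of 6.42, 6.67 and 6.53. Nkg7 was 7.19, 8.05 and 7.78, and Ncr1 and Klrd1 differed by 0.40 and 0.00 on day 12. All 7 keratinocyte markers were higher on day 12 (median 0.13), Dsp, Trp63 and Krt10 by 0.45, 0.29 and 0.19. Of 6 fibroblast markers 4 were lower (median −0.07), Pdgfra, Pdgfrb and Lum by −0.18, −0.12 and −0.10.

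**Figure D4:**
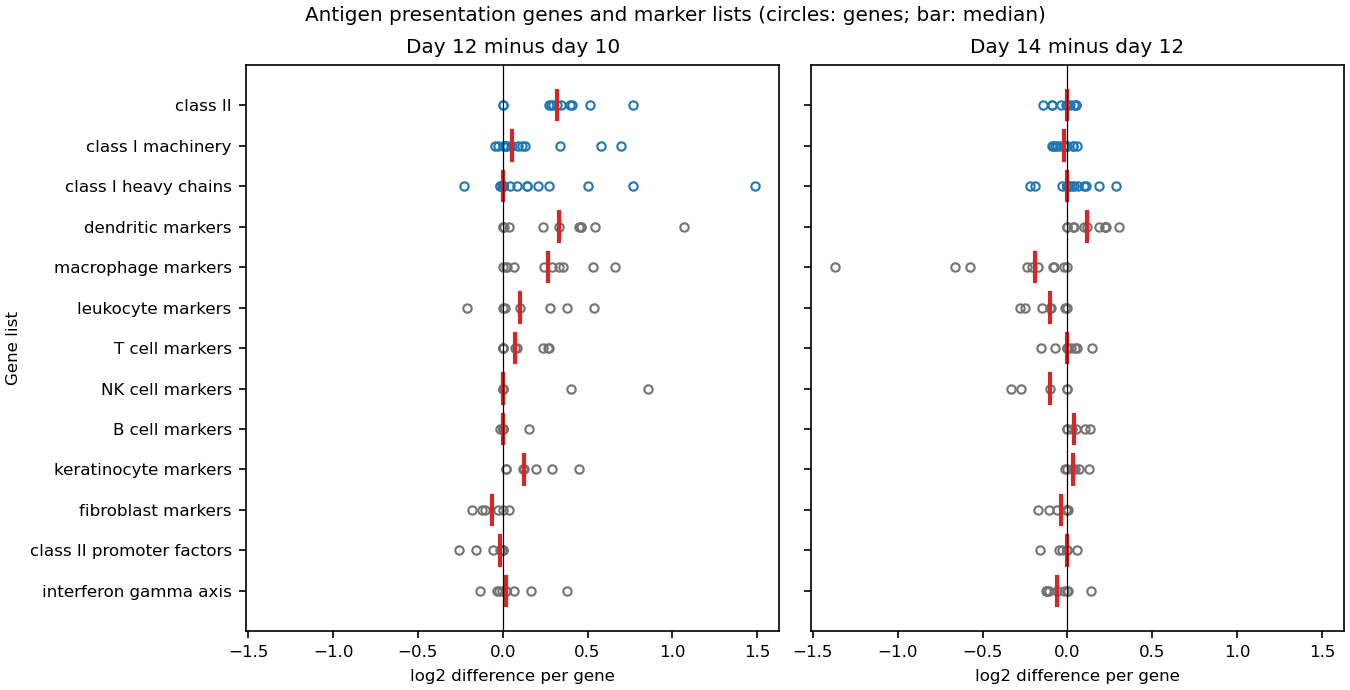
Log2 difference per gene (horizontal axis, open circles) and its median (red bar) for the antigen presentation genes and the marker and pathway lists (vertical axis), for day 12 minus day 10 at left and day 14 minus day 12 at right. The class II, dendritic and macrophage medians lie at 0.32, 0.33 and 0.27 at left, and at 0.00, 0.12 and −0.19 at right.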

How the data were processed

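The authors deposited log2 expression for each probe set of the 3 arrays. Per the submitters' processing notes, RMA and Partek 6.6 were used, with no roles given. The log2 scale was inferred from the values, which run from 4.37 to 14.1. Genome build and detection calls are not given in the sources used here. The platform annotation gave 1 symbol to 21789 of 35556 probe sets, several to 1621 and none to 12146. Probe sets with 1 symbol were averaged per symbol without further scaling, and all 46 members matched a GRCm38.p6 gene table by Entrez identifier with symbols unchanged.

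Genes were counted at 1.5-fold and 2-fold, and no test was made with 1 array per day. Members were named when their mean reached the median of gene means (8.25; 25 members) or when any pair of days differed by 1.5-fold (27 named in all). In each of the 14 comparison lists, the 3 genes with the largest difference were named. The yardstick of technical spread is the 95th percentile of a probe set's deviation from its gene's mean difference, enlarged for the number of probe sets in that mean. Error shared by a gene's probe sets does not enter it. The members and lists were chosen with earlier results of these data known, and the yardstick, the promoter patterns and the shared probe sets with other symbols were added after seeing the data. Alternatives were 3 other scalings (centring on medians, quantile and cyclic loess with limma 3.58.1 in R 4.3.3), the brightest probe set, a level filter, shared probe sets and the removal of ties. The counting step was tested on simulated data. Python 3.11.15 was used, and promoters came from RefSeq.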

Additional observations from a re-analysis of the deposited data

How the results depend on the processing

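No paired analysis was possible because each day has 1 pool, and no replicate could be left out. The class II medians on day 12 and day 14 against day 10 differed from the reported values by less than the spread between probe sets under every alternative run. The class I median on day 12 against day 10 was 0.089 both with the level filter and without tied genes, against 0.02 with all members. At 2-fold, class I had 1 gene in place of 3 on day 12 and 1 in place of 2 on day 14 against day 10, and class II had 0 in place of 1 on both days. The level filter left 1 class I gene at 1.5-fold on day 14 against day 10, since H2-M2 lies below it. After cyclic loess, Tap1 passed 1.5-fold on day 12 (0.589). With the brightest probe set, Nlrc5 differed by 0.35 on day 12 against day 10 in place of 0.70. No member difference of at least 0.1 changed sign under another scaling. Counts of any difference depend on scaling through ties: 22.9% of all genes were higher on day 12 after centring, 29.9% after quantile normalization and 51.0% after cyclic loess, while 9, 9 and 10 of 11 class II genes and 19, 19 and 24 of 33 class I genes were. On day 14 against day 12, 74.4%, 72.6% and 48.5% of all genes, 7, 7 and 4 class II genes and 25, 25 and 15 class I genes were higher. On day 14 against day 10, these were 66.3%, 54.3% and 48.0% of all genes, 11, 10 and 9 class II genes and 30, 26 and 24 class I genes. Signal over background is unknown, so low values such as those of H2-M2 on day 10 may be bounds.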
